A study of Rattus norvegicus with 24 samples.

Results

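The genes described are 10 components of the inflammasome and of interleukin-1 signalling: Nlrp3, Pycard, Casp1, Casp4, Gsdmd, Il1a, Il1b, Il18, Il1r1 and Il1rn. Their loci were taken by name, as those of the deposited table whose name equals 1 of the 10 symbols. Each symbol named exactly 1 of the 26641 named loci. The 10 symbols were chosen with earlier results of these data known. The genes were followed in 24 messenger RNA libraries of adult male Sprague-Dawley rats, prepared 3 months after surgery. Lateral fluid-percussion injury (TBI), in which a fluid pulse strikes the dura through a craniectomy over the left parietal cortex, was given to 6 rats, and 6 sham-operated controls underwent every step of the surgery except the pulse. From each rat the perilesional cortex and the ipsilateral thalamus were sequenced, which gave 4 groups of 6 libraries: TBI cortex, sham cortex, TBI thalamus and sham thalamus. The TBI rats had been selected, with magnetic resonance imaging, for lasting inflammation around the lesion, and so stand for that kind of outcome rather than for every injured rat. Each library holds RNA of bulk tissue from 1 coronal slice. No genotype or planned drug treatment separated the groups. By the methods of the study, any rat with signs of pain was given carprofen, and which rats received it is not stated.

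Inflammasomes are cytosolic complexes that form when a sensor meets a danger signal. The sensor recruits the adaptor encoded by Pycard (ASC), which gathers and activates caspase-1, and the caspase then cleaves the precursors of interleukin-1 beta and interleukin-18 and opens the pore-forming protein gasdermin D, through which the cytokines leave the cell, a process that can end in a lytic cell death called pyroptosis. In brain tissue the complex is known best from microglia and other myeloid cells, and interleukin-1 acts mainly on endothelial cells, astrocytes and neurons that carry its receptor, where the receptor antagonist competes with it.

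Positions are those of the deposited locus table, and the processing notes of the submitters name the build Rnor_5.0, although the methods of the study also name an older rat assembly and the table itself states none. The sensor gene Nlrp3 was at chromosome 10, 45649990 to 45674332, and Pycard at chromosome 1, 206460800 to 206462095. Casp1 (chromosome 8, 2627398 to 2636854) and Casp4 (chromosome 8, 2658129 to 2674719) were neighbours. Gsdmd was at chromosome 7, 116782279 to 116786870. The ligand genes Il1a (chromosome 3, 128180500 to 128190982) and Il1b (chromosome 3, 128133908 to 128140349) also lay side by side, while Il18 was at chromosome 8, 53562903 to 53614215. Il1r1 was at chromosome 9, 46647518 to 46723231, and Il1rn at chromosome 3, 1456035 to 1461446. Each locus covers the exons and introns of an assembled gene, and a value sums its transcripts. The Il18 locus overlapped 6 other loci of the table, among them Bco2 and Tex12, so fragments there could have been assigned to either, and none of the other 9 loci overlapped another.

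The region before the start site was available from RefSeq (build GRCr8) for 8 of the 10 genes, all but Casp4 and Gsdmd. The 300 bases around each start were searched on both strands for the NF-kappaB consensus, the IRF core GAAANNGAA, the PU.1 core GAGGAAGT and the AP-1 site TGANTCA. These are motifs of transcription factors known in inflammatory gene control. They occurred in 4.18%, 9.71%, 2.42% and 7.33% of 33469 rat promoters. Among the 8, Il1r1 held an NF-kappaB match, Casp1 an IRF match, and Il1a and Il18 an AP-1 match each, that of Il18 after the start site, and no PU.1 match was present. The 250 bases before the start are printed for Casp1 and Il1a, a caspase and a ligand gene called for a larger TBI effect in thalamus. They are also printed for the receptor gene Il1r1 and for Nlrp3, which changed in both regions and held no match. Matched letters are in capitals. The stretches lie at chr8:10872580-10872829, plus strand, at chr3:136990018-136990267, minus strand, at chr9:50034133-50034382, plus strand and at chr10:44827848-44828097, plus strand, and are written 5′ to 3′ on the strand of the gene.
Casp1: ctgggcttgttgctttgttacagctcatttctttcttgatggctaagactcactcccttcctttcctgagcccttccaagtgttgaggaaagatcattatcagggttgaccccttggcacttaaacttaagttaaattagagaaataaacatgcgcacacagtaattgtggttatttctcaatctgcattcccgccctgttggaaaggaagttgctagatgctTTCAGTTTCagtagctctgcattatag
Il1a: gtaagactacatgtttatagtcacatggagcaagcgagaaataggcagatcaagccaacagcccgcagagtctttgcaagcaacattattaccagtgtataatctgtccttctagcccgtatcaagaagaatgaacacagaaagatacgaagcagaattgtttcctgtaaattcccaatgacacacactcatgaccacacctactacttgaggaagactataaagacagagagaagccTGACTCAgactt
Il1r1: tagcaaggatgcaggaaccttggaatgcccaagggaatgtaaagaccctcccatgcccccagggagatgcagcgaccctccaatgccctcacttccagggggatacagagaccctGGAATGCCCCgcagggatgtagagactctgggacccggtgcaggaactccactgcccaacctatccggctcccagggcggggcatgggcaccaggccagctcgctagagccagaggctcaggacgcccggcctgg
Nlrp3: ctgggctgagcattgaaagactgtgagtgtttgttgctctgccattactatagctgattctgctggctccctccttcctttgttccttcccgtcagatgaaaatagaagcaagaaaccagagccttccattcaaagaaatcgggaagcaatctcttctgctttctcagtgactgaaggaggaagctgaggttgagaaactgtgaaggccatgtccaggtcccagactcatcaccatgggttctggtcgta
A match describes letters in this window and is not evidence that a factor binds there.

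Values are normalized counts, that is counts of fragments scaled between libraries by a size factor. The libraries held 30568928 to 54608919 fragments, and the members were covered by between 4 fragments (Il1b in a sham thalamus) and 1355 (Il1r1 in a TBI cortex), so that Il1b, Il1a and Il1rn were the least precisely measured. The regions carried their own genes: Tcf7l2, a thalamic transcription factor, lay between 10079.7 and 15813 in thalamus against 185 to 339 in cortex, and the cortical factor gene Neurod6 between 1625 and 2950.4 in cortex against 45.5 to 86.4 in thalamus. Choroid plexus markers, genes of the tissue that makes cerebrospinal fluid, summed to over 10000 in 6 libraries: the cortices of TBI rat 45 and sham rats 26 and 34, and the thalami of TBI rat 45 and sham rats 34 and 50. The other 18 libraries summed to between 588 and 2997. Results that changed without those 6 libraries are given both ways.

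In the perilesional cortex, 5 of the 10 genes rose after TBI and none fell past the threshold, by limma with Benjamini-Hochberg adjustment over all 15493 loci tested at 0.05. The number that fell was also 0 at an unadjusted p under 0.05 and by edgeR. Those that rose were the sensor Nlrp3, the adaptor Pycard, the caspase Casp4, the pore-forming Gsdmd and the cytokine Il18. Over all loci tested, 14.3% were called higher and 14.9% lower. The median log2 fold change of the 10 genes was 0.45, against -0.01 over all loci. All fold changes are on the scale of log2(normalized count + 1).

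Nlrp3 ranged from 177 to 219 with a median of 192 in TBI cortex and from 117 to 142 with a median of 132 in sham cortex (mean 196 ± 20.6 against 129.8 ± 10.1, SD, n = 6 each). Every TBI rat lay above every sham rat. The log2 fold change was 0.59 ± 0.09 (SE), a 1.50-fold rise (adjusted p = 0.00036). Pycard ranged from 84.4 to 142 with a median of 112 after TBI and from 39.1 to 79.8 with a median of 71.1 in controls. The groups again did not overlap, although the lowest TBI value and the highest sham value were close, and the change was 0.80 ± 0.17 (SE) (adjusted p = 0.003).

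Casp4, the rodent caspase-11 gene whose product senses lipopolysaccharide inside the cell and cleaves gasdermin D directly, was between 224 and 302 in TBI cortex (median 266) and between 133 and 194 in sham cortex (median 149.8). It rose by 0.74 ± 0.11 (SE) on the log2 scale, with an adjusted p of 0.000261, the lowest of the 10 genes in cortex. Its substrate Gsdmd reached 367 ± 65.2 (SD, n = 6) against 229 ± 30.5. This was a rise of 0.67 ± 0.12 (SE) with no overlap, from 288 to 480.0 with a median of 366 after TBI and from 189.5 to 272 with a median of 225 in controls (adjusted p = 0.000875). Nlrp3, Pycard, Casp4 and Gsdmd were thus the 4 genes whose cortical groups did not overlap, and 7.02% of all loci tested were higher without overlap in this comparison.

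The canonical caspase Casp1 was not called in cortex. Its values ran from 144 to 212 with a median of 176 in TBI rats and from 130.04 to 156 with a median of 151 in sham rats, and 5 of the 6 TBI rats exceeded every sham rat. The exception was rat 24 at 144. The difference was 0.26 ± 0.10 (SE) with an adjusted p of 0.059. It was called without that library (adjusted p = 0.0235) but on leaving out no other library alone, with adjusted p-values of up to 0.130. Nor was it called without the choroid plexus libraries (adjusted p = 0.149).

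Of the cytokine genes, Il18 was the 1 called in cortex. It ranged from 131 to 224 with a median of 166 after TBI and from 102 to 156 with a median of 128 in sham rats. Rat 24, at 131, lay within the sham range and the other 5 TBI rats above it. The rise of 0.41 ± 0.13 (SE) had an adjusted p of 0.0273, and without the 3 choroid plexus libraries of this comparison it was 0.23 with an adjusted p of 0.239. The call was also lost on leaving out TBI rat 22 or 45 or sham rat 26, 34 or 38 alone, with adjusted p-values of up to 0.0625. Il1b, the cytokine that caspase-1 matures, ran from 15.5 to 33.98 with a median of 23.7 in TBI cortex and from 11.6 to 24.8 with a median of 14.8 in sham cortex. Sham rat 26, at 24.8, lay above 4 of the 6 TBI rats, and the difference of 0.50 ± 0.23 (SE) was not called (adjusted p = 0.119). Il1a, which is active without caspase cleavage and serves as an alarm signal of damaged cells, was at 37.6 ± 9.31 and 36.1 ± 7.28 (SD, n = 6 each). Its difference was 0.05 ± 0.19 (SE) (95% interval -0.36 to 0.45, adjusted p = 0.88).

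Neither the receptor nor its antagonist passed the test in cortex. Il1r1 ran from 671 to 1151 with a median of 719.7 in TBI rats, the top value being that of rat 45, and from 541 to 689.5 with a median of 654 in sham rats. The difference was 0.29 ± 0.12 (SE) (adjusted p = 0.0737). It was 0.17 without TBI rat 45 and 0.15 without the 3 choroid plexus libraries, and was not called in either fit. Il1rn, which encodes the antagonist that occupies the receptor without signalling, ran from 40.5 to 70.3 with a median of 54.3 after TBI and from 52.2 to 104 with a median of 59.8 in controls. It was the 1 gene of the 10 with a lower mean after TBI in cortex, and its difference of -0.30 ± 0.19 (SE) was not called (adjusted p = 0.236), and was -0.17 without sham rat 50.

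**Figure D1:**
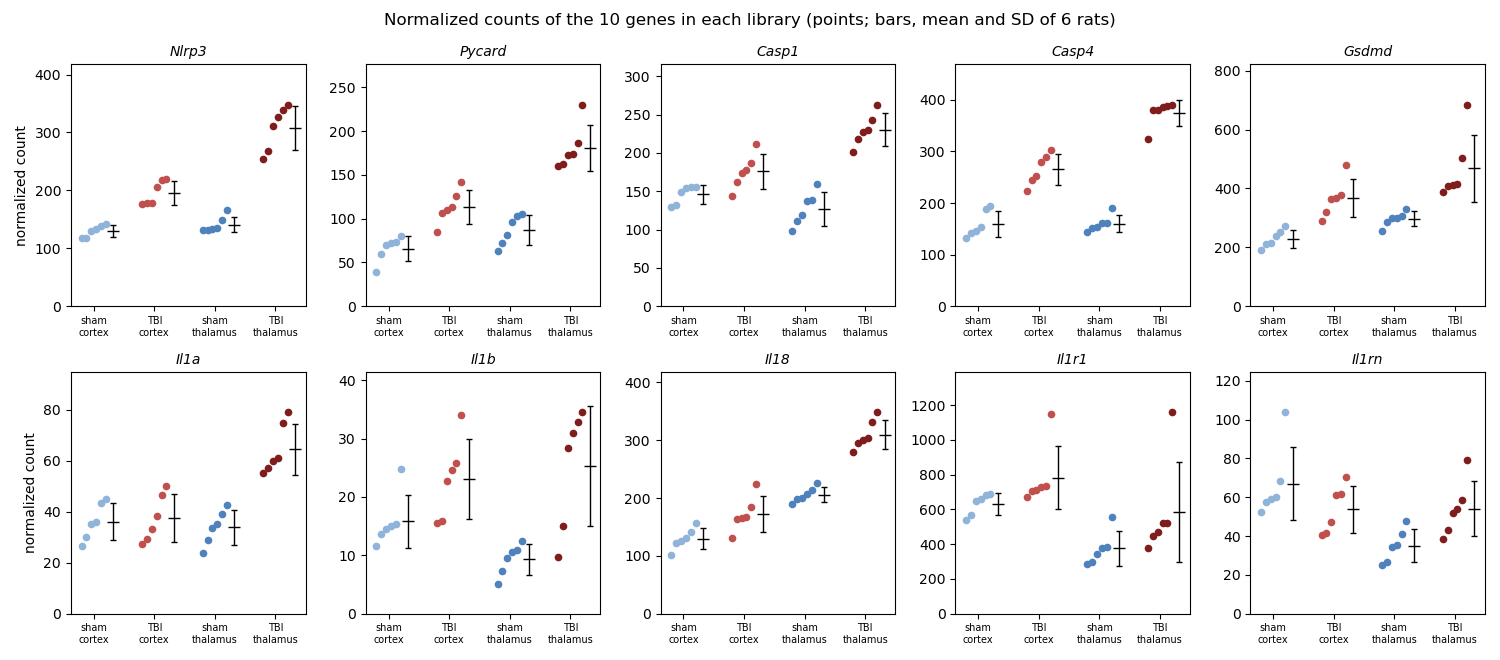
Normalized counts of the 10 genes in each library (vertical axes start at 0), by group, with points sorted by value within a group and bars for the mean and SD of 6 rats. Casp4 and Il18 form a high, separate group in TBI thalamus, Il1a is raised there and in no other group, and rat 45 is the high point of Il1r1 in both TBI groups.

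In the ipsilateral thalamus, 9 of the 10 genes rose after TBI and none fell past the threshold (limma; also 0 at an unadjusted p under 0.05 and by edgeR). Over the 15564 loci tested there, 14.5% were called higher and 20.9% lower. The median log2 fold change of the 10 genes was 0.89, against -0.02 over all loci. In 7 genes (Nlrp3, Pycard, Casp1, Casp4, Gsdmd, Il1a and Il18) every TBI rat lay above every sham rat, which held for 7.46% of all loci tested.

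Nlrp3 ranged from 254 to 348 with a median of 319 in TBI thalamus and from 132 to 165 with a median of 134 in sham thalamus. The gap between the groups, from 165 to 254, was wide, and the rise was 1.12 ± 0.10 (SE) or 2.17-fold (adjusted p = 2.29e-06). Pycard went from 86.8 ± 17.2 (SD, n = 6) in controls to 181 ± 25.9 after TBI. That was 1.06 ± 0.14 (SE) on the log2 scale (adjusted p = 7.25e-05), with TBI values from 160.2 to 230.2 with a median of 173.

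Casp4 changed with the lowest adjusted p of the 10 genes. Its TBI values lay from 325 to 391 with a median of 383 and its sham values from 144 to 190.0 with a median of 157. The TBI rats were tightly grouped, 5 of them between 379.9 and 391 with rat 22 lower at 325, and the rise was 1.23 ± 0.08 (SE) or 2.34-fold (adjusted p = 2.23e-07). Casp1 rose as well, from 127 ± 22.1 to 231 ± 21.0 (SD, n = 6 each), by 0.86 ± 0.12 (SE) (adjusted p = 9.05e-05). Its highest sham value was 159 and its lowest TBI value 202. Gsdmd ranged from 389 to 685 with a median of 414 after TBI and from 254 to 332 with a median of 299 in controls. Rat 45 stood above the other TBI rats, and the rise was 0.63 ± 0.13 (SE) (adjusted p = 0.00146).

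All 3 cytokine genes rose in thalamus. Il1a was between 55.04 and 79.1 in TBI rats (median 60.4) and between 23.7 and 42.5 in sham rats (median 34.5), a rise of 0.92 ± 0.17 (SE) (adjusted p = 0.000719). Il1b had the largest fold change of the 10 genes in thalamus and the largest SE, at 1.28 ± 0.33 (SE) (95% interval 0.57 to 1.98, adjusted p = 0.00784). Its values ran from 9.78 to 34.5 with a median of 29.7 after TBI and from 5.01 to 12.4 with a median of 10.0 in controls, where the 6 libraries held 4 to 12 fragments each. TBI rat 24, at 9.78, lay within the sham range, rat 52 at 15.0 just above it, and the other 4 at 28.4 or more. Without the 3 choroid plexus libraries of this comparison the Il1b difference was 0.92 and no longer called (adjusted p = 0.0739). Il18 rose from 206 ± 13.1 to 309.8 ± 25.3 (SD, n = 6 each) without overlap, by 0.59 ± 0.08 (SE) (adjusted p = 7.04e-05).

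The antagonist gene Il1rn was called higher in thalamus, at 54.2 ± 14.3 after TBI against 35.0 ± 8.59 in controls (SD, n = 6 each). The groups overlapped, with 4 of 6 TBI rats above every sham rat. The change was 0.61 ± 0.20 (SE) (adjusted p = 0.0312). It missed the threshold without the filter on low values (adjusted p = 0.0514) and on leaving out TBI rat 24, 56 or 63 or sham rat 32, 34 or 55 alone, with adjusted p-values of up to 0.072. Il1r1 was not called. Its TBI values ran from 378 to 1160.3 with a median of 496 and its sham values from 288 to 558 with a median of 361, and only rat 45 exceeded every sham rat. The difference was 0.56 ± 0.23 (SE) (adjusted p = 0.0725). Without the 3 choroid plexus libraries, which hold the highest value of each group, it was 0.51 and called (adjusted p = 0.00752), as it was with all 24 libraries in one fit (adjusted p = 0.0249) and on leaving out TBI rat 52 (0.0415) or sham rat 34 (0.0318) alone. Leaving out TBI rat 45 alone lowered it to 0.34, and it was not called there nor on leaving out any of the other 9 libraries, with adjusted p-values of up to 0.144.

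**Figure D2:**
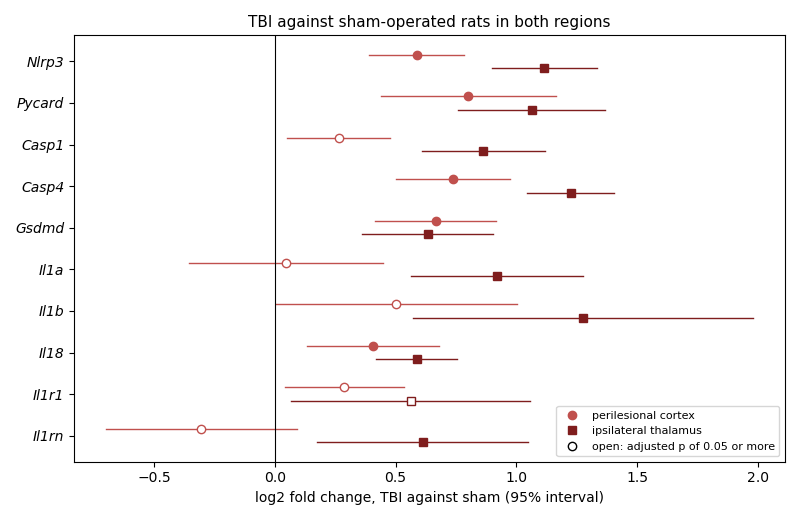
Log2 fold change of TBI against sham for the 10 genes in perilesional cortex (circles) and ipsilateral thalamus (squares), with 95% intervals; filled symbols passed the adjusted p threshold of 0.05. Gsdmd has nearly the same change in both regions, whereas Il1rn lies at -0.30 in cortex and 0.61 in thalamus.

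The interaction of TBI and region was fitted to the 24 libraries together, and 5 of the 10 genes were called, each with the larger effect in thalamus. A positive difference, thalamus minus cortex, was called in 2.72% of 15678 loci, which can also arise from a fall in cortex. The difference of the log2 fold changes, thalamus minus cortex, was 0.53 ± 0.13 (SE) for Nlrp3 (adjusted p = 0.0143) and 0.60 ± 0.15 (SE) for Casp1 (adjusted p = 0.017). For Casp4 it was 0.49 ± 0.14 (SE) (adjusted p = 0.0317), for Il1a 0.88 ± 0.25 (SE) (adjusted p = 0.0306) and for Il1rn 0.92 ± 0.28 (SE) (adjusted p = 0.0461). Il1rn was the gene whose means moved in opposite directions. Gsdmd differed by -0.03 (95% interval -0.40 to 0.34), Pycard by 0.26 (-0.21 to 0.73), Il18 by 0.18 (-0.13 to 0.49), Il1r1 by 0.28 (-0.29 to 0.84) and Il1b by 0.77 (-0.06 to 1.60), and none of these was called.

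Because both regions came from the same rats, the interaction was also fitted with the rat as a block. Nlrp3 (adjusted p = 0.0204) and Casp1 (adjusted p = 0.0124) were then called, and the count of called genes fell from 5 to 2, with adjusted p-values of 0.0614 for Casp4, 0.0618 for Il1a and 0.0666 for Il1rn. Leaving out the 6 choroid plexus libraries left Nlrp3 called (difference 0.60, adjusted p = 0.0425) and Casp1 at 0.67 with an adjusted p of 0.0518. Casp4, Il1a and Il1rn had adjusted p-values of 0.138, 0.162 and 0.0819 in that fit, with differences of 0.46, 0.82 and 1.08. Leaving out 1 library at a time gave 2 to 5 called genes, and 3 or fewer without TBI cortex 24 or 56, TBI thalamus 22, 24 or 63, sham cortex 26, 34 or 50, or sham thalamus 55. The Il1rn call was lost in 16 of these 24 fits, and the Casp4 and Il1a calls in 6 each, while Nlrp3 and Casp1 stayed called throughout. The difference of Il1b was 0.38 without the choroid plexus libraries, and that of Il1r1 0.06 without TBI thalamus 45.

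The regions also differed in sham rats, where 3 of the 10 genes were called higher and 3 lower in thalamus than in cortex. These shares stand beside 33.5% of 15678 loci called higher and 27.9% called lower. Il18 was the clearest of the higher genes, at 206 ± 13.1 in sham thalamus against 129 ± 18.4 in sham cortex (SD, n = 6 each), without overlap, as in 23.7% of loci. Its log2 difference was 0.67 ± 0.11 (SE) (adjusted p = 4.98e-06). Gsdmd (0.37 ± 0.13 (SE), adjusted p = 0.0129) and Pycard (0.41 ± 0.16 (SE), adjusted p = 0.0303) were higher by less, and neither was called without the choroid plexus libraries (adjusted p = 0.0595 and 0.12). The Pycard call was also lost on leaving out sham cortex 34 or 50 or sham thalamus 26, 32 or 34 alone, the value without sham cortex 50 being 0.27 (adjusted p = 0.109). The antagonist Il1rn was lower in thalamus, from 25.04 to 47.7 with a median of 35.0 against 52.2 to 104 with a median of 59.8 in cortex. Every thalamic value lay below every cortical one, as in 19.1% of loci, with a log2 difference of -0.91 ± 0.20 (SE) (adjusted p = 0.000278). The receptor gene Il1r1 had a difference of -0.78 ± 0.20 (SE) on the log2 scale (adjusted p = 0.00118), 5 of 6 thalami lying below every cortex. Il1b had a difference of -0.72 ± 0.29 (SE) (adjusted p = 0.0313), a call lost without the choroid plexus libraries (-0.32, adjusted p = 0.418) and on leaving out sham cortex 26 or sham thalamus 34 or 50 alone (adjusted p of up to 0.0887). Nlrp3, Casp1, Casp4 and Il1a were not called, with log2 differences of 0.12, -0.21, 0.02 and -0.09, but Casp1 was called without sham thalamus 32 (-0.28, adjusted p = 0.0281).

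In TBI rats, 7 of the 10 genes were called higher in thalamus than in cortex and 1 lower, beside 32.7% and 27.9% of all loci. This comparison uses the same TBI libraries as those above. Il18 (0.85 ± 0.11 (SE), adjusted p = 1.41e-07), Il1a (0.79 ± 0.17 (SE), adjusted p = 0.000392), Pycard (0.67), Nlrp3 (0.65), Casp4 (0.50), Casp1 (0.39) and Gsdmd (0.34) were the higher genes. The Gsdmd call was lost on leaving out TBI cortex 52 (adjusted p = 0.0526), TBI cortex 63 (0.0673) or TBI thalamus 45 (difference 0.23, adjusted p = 0.0792). In 5 of the higher genes, Nlrp3, Pycard, Casp4, Il1a and Il18, every TBI thalamus lay above every TBI cortex, beside 19.5% of all loci. Il1r1 was the lower gene, at -0.51 (adjusted p = 0.0279), and lost its call with edgeR and on leaving out TBI cortex 45 or TBI thalamus 22, 52 or 56 alone (adjusted p of up to 0.0865). Il1rn, which differed between the regions of sham rats, was not called in TBI rats (log2 difference 0.0039, 95% interval -0.40 to 0.41). Il1b was likewise not called in this comparison (0.05, 95% interval -0.54 to 0.64).

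In order of group mean, Nlrp3, Pycard, Gsdmd and Casp4 ran from sham cortex over sham thalamus and TBI cortex to TBI thalamus. Of the neighbouring groups in this order, the sham regions did not differ beyond their spread for Nlrp3 and Casp4, TBI cortex and TBI thalamus differed for all 4 genes, and sham thalamus and TBI cortex were not compared. Casp1 and Il1b ran from sham thalamus over sham cortex and TBI cortex to TBI thalamus, where Casp1 was called as different between TBI cortex and TBI thalamus but not between the sham regions or between the cortical groups, and Il1b between the sham regions but not between the cortical groups or the TBI regions. Il18 differed from these in that sham thalamus, at 206 ± 13.1, was above TBI cortex, at 173 ± 30.7 (SD, n = 6 each). Il1r1 was higher in both cortical groups than in both thalamic groups. Il1a stood out in TBI thalamus, its other 3 groups having means of 33.9 to 37.6. Il1rn was lowest in sham thalamus and highest in sham cortex, with the TBI groups at 53.8 ± 12.3 and 54.2 ± 14.3.

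Rats within a group differed from each other as well. In TBI cortex, rat 45 was the highest of the 6 for 6 of the 10 genes and rat 24 the lowest for 4. Rat 45 also stood apart for Il1r1, which was 1151 in its cortex and 1160.3 in its thalamus, where the other 5 TBI rats reached at most 735 and 525. Both libraries of this rat held many choroid plexus fragments (summed markers 32899 and 262216). Both also had the most fibroblast and meningeal markers of their group. These summed to 27171.5 in its cortex, against 13077 to 20789 in the other TBI cortices, and to 26638 in its thalamus, against 4708 to 5398 in the other TBI thalami. The part of either marker set in the Il1r1 values was not tested. In TBI thalamus, rat 63 was highest for Pycard, Casp1 and Il1rn, and had the highest summed microglia markers (40289). Rat 45 was highest there for Gsdmd, Il1b and Il1r1 (sum 33037), and rat 22 for Nlrp3 and Il1a (31389). Rat 56 was highest for Casp4 (36169) and rat 24 for Il18 (34691). A relation of these sums to the genes was not tested. The genes also parted within 1 library, that of rat 24: its thalamic Il18 was the highest of the TBI rats, at 348, and its Il1b the lowest, at 9.78.

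**Figure D3:**
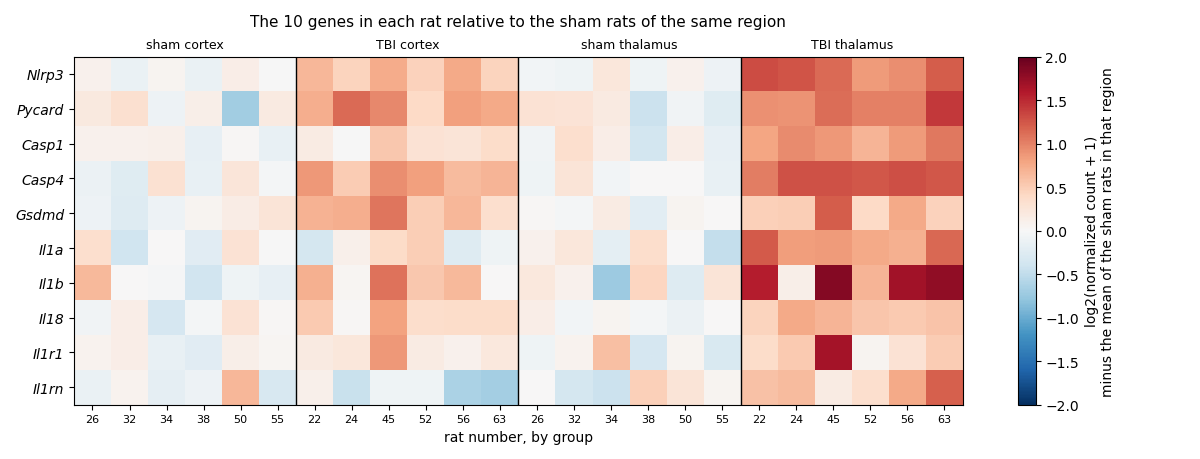
Each cell is log2(normalized count + 1) of a gene in 1 library minus the mean of the sham rats of that region, by rat number (columns) and gene (rows). Casp4 in TBI thalamus is uniform from 1.02 to 1.29, Il1b varies from 0.11 to 1.84, and Il1rn is below 0 in 5 of 6 TBI cortices and above 0 in all 6 TBI thalami.

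Markers of other cells moved with the same groups. In bulk tissue, a change in the number of cells of a type and a change in RNA per cell cannot be told apart. Of 14 microglia markers, 13 were tested in each region, of which 11 rose in cortex and 13 in thalamus (medians 0.56 and 1.02). Siglech was at or under 3 fragments in all libraries. Their summed normalized count was 19428 to 21556 against 14221 to 15463 in the TBI and sham cortices and 31071 to 40289 against 15207 to 18961 in the thalami, and 9 of the 13 had a larger TBI effect in thalamus. Per 1000 counts of this sum, Nlrp3 was at 9.49 ± 0.631 in TBI cortex and 8.76 ± 0.649 in sham cortex, and at 9.00 ± 1.35 in TBI thalamus and 8.22 ± 0.883 in sham thalamus (SD, n = 6 each). Pycard gave 5.52 ± 0.94, 4.44 ± 1.05, 5.25 ± 0.463 and 4.99 ± 0.538 in the same order. These ratios had overlapping ranges between TBI and sham rats in both regions, while the levels themselves did not overlap. For Casp4 the ratio was 12.9 ± 1.41 and 10.7 ± 1.57 in cortex and 11.0 ± 0.997 and 9.34 ± 1.03 in thalamus. By its mean the ratio was higher after TBI for Nlrp3, Pycard, Casp4, Gsdmd and Il1b in cortex and for Nlrp3, Pycard, Casp4 and Il1b in thalamus, and lower for the other 5 and 6 genes. In cortex, after TBI and in controls, the lower ones were Casp1 (8.55 ± 1.09 and 9.85 ± 0.79), Il1a (1.84 ± 0.503 and 2.43 ± 0.473), Il18 (8.36 ± 1.32 and 8.76 ± 1.42), Il1r1 (37.999 ± 8.26 and 42.8 ± 5.21) and Il1rn (2.61 ± 0.584 and 4.53 ± 1.29). In thalamus they were Casp1 (6.70 ± 0.307 and 7.37 ± 0.942), Gsdmd (13.7 ± 3.66 and 17.3 ± 1.53), Il1a (1.89 ± 0.336 and 1.98 ± 0.465), Il18 (9.06 ± 1.04 and 12.0 ± 1.04), Il1r1 (17.1 ± 8.92 and 21.7 ± 4.49) and Il1rn (1.56 ± 0.269 and 2.08 ± 0.685). The ranges of TBI and sham rats were apart for Il1rn in cortex and for Il18 in thalamus, and overlapped in the other cases. The ratios were not tested, and neither was the part of microglia in the changes.

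Among the other cell types, neutrophil and monocyte markers, whose cells also express Il1b and Nlrp3, gave 2 higher and 0 lower of 3 tested in cortex, and 2 and 0 of 4 in thalamus. Their sum was 1353 to 3107 in TBI and 886 to 1285 in sham cortex, and 1666 to 3482 and 617 to 951 in thalamus, with Elane at or under 3 fragments in every library. Lyz2 and Csf3r led this sum. The mean of S100a9 was 19.7 ± 9.55 after TBI and 16.8 ± 2.40 in sham cortex, and 12.9 ± 7.37 and 7.50 ± 4.25 in thalamus (SD, n = 6 each). For Camp it was 9.59 ± 4.57 and 8.03 ± 4.45 in cortex, and 16.4 ± 5.21 and 19.2 ± 6.19 in thalamus. Perivascular macrophage markers gave 3 higher and 0 lower of 6 tested in cortex, and 1 and 0 of 6 in thalamus (sums 854 to 1642 against 736 to 899, and 936 to 2854 against 1023 to 1427). T, B and NK cell markers gave 1 higher and 0 lower of 4 tested in cortex, and 1 and 0 of 1 in thalamus. Their sum was led by Cd4, which rat macrophages and microglia also express, and was 1322 to 1639.5 against 747 to 924 and 2536 to 4197 against 714 to 1099.8, with Klrb1 at 0. Astrocyte markers gave 5 higher and 2 lower of 9 tested in cortex, and 5 and 0 of 9 in thalamus (sums 406792 to 451551 against 373808 to 394864, and 404328 to 465044 against 283942 to 315993). Neuron markers gave 0 higher and 7 lower of 9 tested in cortex, and 0 and 7 of 9 in thalamus, their sums being 244723 to 337342 against 363037 to 393675 and 168366 to 208853 against 247446 to 297580.0. Endothelial markers gave 1 higher and 0 lower of 7 tested in cortex, and 4 and 0 of 7 in thalamus, and fibroblast and meningeal markers 6 higher and 0 lower of 6 tested in cortex, and 0 and 0 of 6 in thalamus. Oligodendrocyte markers gave 2 higher and 0 lower of 6 tested in cortex, and 1 and 0 of 6 in thalamus. Choroid plexus and erythroid markers were not called in either region. The part of these cells in the changes of the 10 genes was not tested.

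The 10 genes were set among 8 lists of genes of the same pathway, whose counts include them. Apart from the 10, 61 genes of these lists were tested in cortex, of which 28 rose and 7 fell, and 59 in thalamus, of which 32 rose and 5 fell. In all, 25 of them were called in both regions. Their median log2 fold changes were 0.18 and 0.29. Tollip and Sod2 fell in both regions. The others that fell, named after their values were seen, were in cortex Nek7, Il1rapl1 (-0.35), Tab3 (-0.22), Ptgs2 (-0.41), which encodes the prostaglandin enzyme cyclooxygenase-2, and the matrix protease gene Mmp9 (-0.52), and in thalamus the channel gene Panx1 (-0.24), Bsg (-0.29) and Peli2 (-0.24).

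Among the sensors and adaptors, which include Nlrp3 and Pycard, most genes rose. Of 10 sensors and adaptors tested, 7 rose and 1 fell in cortex (median 0.68), and 8 rose in thalamus (median 1.09). Besides Nlrp3 and Pycard, 5 genes rose in both regions. Mefv, which encodes pyrin, had the largest called change of the list in each, 0.98 in cortex (adjusted p = 0.00367) and 1.53 in thalamus (adjusted p = 0.00156). Here and in the next paragraphs the cortical log2 fold change comes first and adjusted p-values stand in parentheses. The DNA sensor Aim2 rose by 0.90 (0.00384) and 1.43 (0.000144). Nlrc4 rose by 0.59 (0.00732) and 1.25 (1.2e-05), and Naip6, of the family of receptors for bacterial proteins that act through Nlrc4, by 0.86 (0.0267) and 1.46 (0.000573). Nod1, a receptor for bacterial cell wall fragments, rose by 0.47 (0.00236) and 0.52 (0.000106). For Nlrc4 the effect was larger in thalamus by 0.66 (adjusted p = 0.0331). Nek7, whose product binds NLRP3 during its activation, was the gene that fell in cortex (-0.25, adjusted p = 0.027), and is named here after its value was seen. Its interaction, thalamus minus cortex, was also called, at 0.37 (adjusted p = 0.0161).

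Of 8 inflammatory caspases and gasdermins tested, 5 rose in cortex and 4 in thalamus (medians 0.36 and 0.48). Casp8, a caspase of death receptors that can also cleave gasdermin D, rose by 0.39 (adjusted p = 0.0459) and 0.75 (0.00183). Casp12, a caspase gene that follows Casp4 on chromosome 8, had the largest cortical change of the list, 0.93 (adjusted p = 0.00587), and 0.33 in thalamus (0.334). Among 11 triggers and brakes of the inflammasome, 6 rose in cortex, and 8 rose and 2 fell in thalamus. The guanylate-binding protein gene Gbp2, an interferon-induced gene, led in cortex at 1.37 (adjusted p = 4.31e-06) and was 0.93 in thalamus (0.000681). Gbp5 rose by 0.93 (0.00059) and 0.47 (0.0198), and the GTPase gene Irgm by 0.54 (0.00341) and 0.64 (0.00203). Serpinb1a, a protease inhibitor, led in thalamus at 1.10 (0.000845), with 0.79 in cortex (0.000896). Txnip, whose product can bind NLRP3, rose by 0.93 (4.03e-05) and 0.83 (0.00132), and P2rx7, the ATP-gated channel that triggers potassium efflux, by 0.41 (0.00137) and 0.55 (0.000628).

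In the list of 8 interleukin-1 family ligands, 4 were tested, of which 1 rose in cortex and all 4 in thalamus, that beside the 3 genes above being Il33, an alarm cytokine of astrocytes and oligodendrocytes (-0.01 and 0.62, adjusted p = 0.966 and 5.6e-05, named after its value was seen), and 3 others were at or under 3 fragments in every library. Of the receptors, 1 rose and 1 fell of 6 tested in cortex, and 1 of 5 rose in thalamus. The one that rose in both was Il1rl1, the interleukin-33 receptor, by 0.52 (adjusted p = 0.021) and 0.87 (0.000182). Of 3 inhibitors tested, 1 rose in each region. In cortex it was Il18bp, which encodes a soluble trap for interleukin-18 (0.21, adjusted p = 0.0325, with 0.18 and 0.102 in thalamus), and in thalamus Il1rn.

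Downstream of the receptor, 6 of 17 signalling genes rose and 2 fell in cortex, and 8 rose and 2 fell in thalamus, with medians of 0.06 and 0.22. The kinase gene Irak4 led in cortex at 0.60 (adjusted p = 0.000322), with 0.69 in thalamus (3.31e-05). Irak3, which codes for a brake on this pathway, led in thalamus at 0.77 (0.000228), with 0.45 in cortex (0.0149). The adaptor gene Myd88 rose by 0.45 (0.0028) and 0.59 (0.00143). The NF-kappaB subunit genes changed less, Rela by 0.39 (0.00142) and 0.26 (0.00519) and Nfkb1 by 0.16 (0.0398) and 0.22 (0.00169). Tollip, a negative regulator of the receptor complex, was lower in both regions, at -0.22 (0.000946) and -0.21 (0.00339).

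Of 16 genes known to be induced by interleukin-1, and by other cytokines too, 12 were tested in cortex and 11 in thalamus. In cortex 6 rose and 3 fell (median 0.24), and in thalamus 7 rose and 1 fell (median 0.87). Il6, Cxcl1, Cxcl2 and Nos2 lay under the filter on low values in either region, with Nos2 at 0 in every library. The chemokine gene Ccl2 had the largest change in both, 1.42 (adjusted p = 0.0065) and 2.01 (0.002). Lcn2, a secreted acute phase protein, rose by 1.29 (0.00143) and 2.00 (0.000241), and Socs3, a feedback inhibitor of cytokine receptors, by 1.15 (0.000855) and 1.92 (3.45e-06). Cebpd, a transcription factor gene, rose by 1.30 (0.00384) and 1.23 (0.00442), and the adhesion molecule gene Icam1 by 0.62 (0.00052) and 0.96 (0.000446). Sod2, which encodes mitochondrial superoxide dismutase, was lower, at -0.24 (0.00963) and -0.25 (0.00043).

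**Figure D4:**
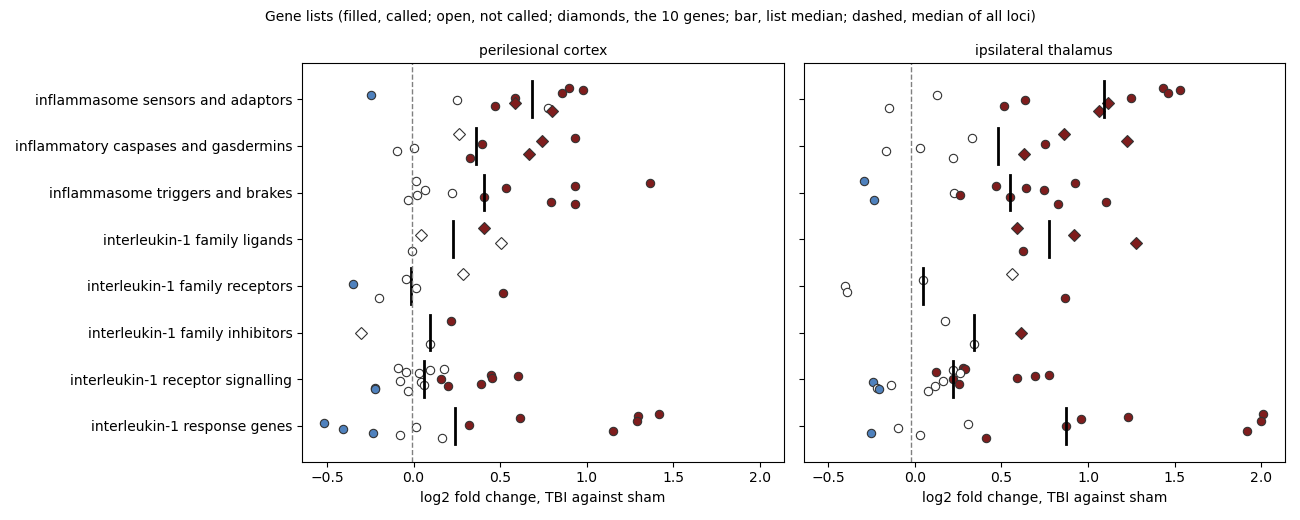
Log2 fold change of TBI against sham for the genes of 8 pathway lists in cortex (left) and thalamus (right). Filled points passed the adjusted p threshold of 0.05, diamonds are the 10 genes, bars are list medians and the dashed line is the median of all loci tested; in the sensor list, Nek7 in cortex (-0.25) and Nod2 in thalamus (-0.15) lie to the left of that line and the other genes to its right.

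The likeness of expression profiles was described over the 24 libraries as the mean absolute difference of log2(normalized count + 1) after centring each of 15678 loci on its own mean, so that a smaller value is a closer profile. No test was made of it, and the libraries share their rats and groups. Within the 10 genes, the closest pair was Nlrp3 and Casp4 (0.172). Outside them, the profiles closest to Nlrp3 were those of Tlr7 (0.109) and Nckap1l (0.114), and to Pycard Unc93b1 (0.134) and Abi3 (0.137). Casp1 lay closest to Fmnl3 (0.108) and NEK6 (0.115), and Casp4 to Slc14a1 (0.123) and Chi3l1 (0.146). Gsdmd was nearest to Hspb8 (0.106) and Dap (0.119), and Il18 to Ampd3 (0.124) and Tpp1 (0.126). For Il1r1 they were Ptrf (0.132) and Myof (0.132). The 3 genes with the fewest fragments lay farther from their nearest profiles, which were that of Dennd2c (0.227) for Il1a, those of Rel (0.206) and Cd274 (0.233) for Il1rn, and those of Cyp7b1 (0.347) and Emp2 (0.351) for Il1b.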

How the data were processed

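RNA of perilesional cortex and ipsilateral thalamus was sequenced from 12 rats (poly(A)-selected stranded libraries, paired fragments). The processing notes of the submitters name TopHat2 2.0.11, Bowtie2 2.2.2, Cufflinks 2.2.1 and the build Rnor_5.0, and the authors tested differences with Cuffdiff. The deposited values are a signal, fragment counts per locus divided by a size factor of each library, called normalized counts here. In all 24 libraries the values came out as whole fragments (100% within 0.1 of a step). The thalamus of sham rat 55, whose step was close to 1, was left out of the edgeR alternative alone. A table of locus names and positions came with them. Libraries held 30568928 to 54608919 fragments, and a count of 0 allows up to 3 fragments, by counting error only. Whether counting used strand is not given in the sources used here.

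Log2(normalized count + 1) was tested with limma 3.58.1 (R 4.3.3, trended empirical Bayes) over named loci with a mean of at least 10, with Benjamini-Hochberg adjustment at 0.05. All 10 genes passed this filter in every fit. TBI was compared with sham within each region (12 libraries), and the regions within TBI or sham rats and the difference of the TBI effects over 24 libraries. Normalized counts are not divided by gene length, so levels were not compared between genes. The study used the same rats for both regions. Deviations from the group mean correlated between the regions of a rat with a median of 0.187 (0.00393 to 0.569, over 0.1 in 10 of 12 rats), and of different rats with -0.0332, so a fit with the rat as a block was also made. Alternatives were edgeR 4.0.16 on recovered fragments (4435 loci called in cortex and 4183 in thalamus, against 4531 and 5516 by limma), TMM scaling, pseudocounts of 0.5 and 5, no filter, 1 fit over 24 libraries and leaving out each library. Leaving out the 6 libraries with summed choroid plexus markers over 10000 was chosen after seeing the data. The fits were tested on simulated data.

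The genes, lists and tests were chosen with earlier results of these data known. List genes were named where called in both regions or largest among those called in a region, and the 2 nearest profiles of each gene were named (1 of them is not reported here), with the exceptions stated and the region markers chosen after their values were seen. The authors' own comparisons were not used.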

Additional observations from a re-analysis of the deposited data

Results flagged for a closer look

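The interaction test of limma without the rat as a block, with adjustment over all loci, called 5 of the 10 genes. Each had the larger TBI effect in thalamus. A positive difference, thalamus minus cortex, was called in 2.72% of 15678 loci. The differences in log2 fold change were 0.529 for Nlrp3, 0.600 for Casp1, 0.486 for Casp4, 0.875 for Il1a and 0.915 for Il1rn. With the rat as a block, Nlrp3 and Casp1 were called, and Casp4 (adjusted p = 0.0614), Il1a (0.0618) and Il1rn (0.0666) were not. Of the pathway genes outside the 10, Nlrc4, of the list of sensors and adaptors, differed by 0.662 (adjusted p = 0.0331). Nek7, at 0.371 (adjusted p = 0.0161), and Il33 were also called with a positive difference, thalamus minus cortex. For Nek7 this set a fall in cortex (-0.25) against a change of 0.13 in thalamus that was not called. Bsg was called with a negative difference, at -0.310 (adjusted p = 0.0438). Its changes were 0.02 in cortex, not called, and -0.29 in thalamus. The last 3 are named after their values were seen, and none of the genes outside the 10 was followed under the alternatives.

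In 8 cases 1 rat stood apart from the other 5 of its group, with a gap to its nearest neighbour that took more of the range than Dixon's limit for 6 values at the 95% level. Chance alone does this in about 1 of 20 groups, and 40 groups were looked at. In TBI thalamus they were Pycard in rat 63 (gap 0.632 of the range), Casp4 in rat 22 (0.835, the low value) and Il1r1 in rat 45 (0.813). In TBI cortex it was Il1r1 in rat 45 (0.867). In sham cortex they were Il1b in rat 26 (0.709) and Il1rn in rat 50 (0.682). In sham thalamus they were Casp4 in rat 32 (0.641) and Il1r1 in rat 34 (0.641). The libraries of TBI rat 45, sham cortex 26 and sham thalamus 34 were among the 6 with high choroid plexus markers, whose part in these values was not tested.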

How the results depend on the processing

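Of 350 values of the 10 genes under alternatives other than leaving out 1 library, 324 kept their direction and their side of the threshold, 19 lost a call, 2 gained one and 5 changed sign. Those that changed sign were near 0: Casp4 between the regions of sham rats with TMM scaling (-0.00285), Il1a there without the choroid plexus libraries (0.0462), Il1rn between the regions of TBI rats with TMM scaling (-0.016) and edgeR (-0.0172), and the Gsdmd interaction without the choroid plexus libraries (0.0386). Leaving out 1 library at a time, sign changes occurred in the ranges -0.0435 to 0.126 (Il1a, TBI against sham in cortex), -0.034 to 0.0761 (Casp4) and -0.17 to 0.00442 (Il1a) between sham regions, -0.0611 to 0.283 (Il1b) and -0.112 to 0.0921 (Il1rn) between TBI regions, and -0.148 to 0.0482 (Gsdmd, interaction). The interaction was the least stable result: 5 genes were called, against 3 without the filter, 2 with edgeR, 2 with the rat as a block, 1 without the choroid plexus libraries and 2 to 5 on leaving out 1 library. The block changed no other call of the 10 genes. Of all loci, the interaction called 1138, and 422 without the choroid plexus libraries, and the cortical comparison 4531 and 2162. Those fits hold fewer samples. Without these libraries 1 gene was called higher in sham thalamus than in sham cortex, against 3. The 1 gene called lower in TBI thalamus than in TBI cortex was 0 with edgeR and 0 to 1 on leaving out 1 library. The cause of these changes was not tested. Fragment counts of 4 to 12 in sham thalamus limit the Il1b values.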
